A study of Mus musculus with 6 samples.

Results

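The genes described here are 31 genes of cholesterol synthesis, its sterol-sensing control, and cholesterol uptake, storage and efflux, followed in white adipose tissue of mice with and without KSR2. They were taken from a fixed list of symbols, and 28 of the 31 had a probe set assigned to that gene alone, among 18193 genes measured. Acat2, Soat1 and Nr1h2 had none and were not analysed here. Of the 28, 17 encode synthesis enzymes, 4 belong to the sterol-sensing control and 7 act in uptake, intracellular transport, storage or efflux. All 28 had a mean level at or above the median of all genes (5.96), though Mvd, at 6.02, was close to it and read 5.00 in WT 1.

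RNA came from C57Bl6 female mice aged 6 months, 3 of them wild type (WT) and 3 homozygous for loss of Ksr2 (labelled KSR2-/-), with 1 Affymetrix array per mouse. KSR2 (kinase suppressor of Ras 2) holds kinases of the ERK pathway together. The study asked which genes and gene sets differ between the genotypes. The sources used here give neither the fat depot nor the diet, and do not say how Ksr2 was disrupted. Values are log2 of the deposited intensity, and differences are KSR2-/- minus WT.

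Cells make cholesterol from acetyl-CoA in a long pathway in which mevalonate is turned into isoprenoid units, these are joined to squalene, and squalene is closed to a ring and trimmed to cholesterol. When the endoplasmic reticulum runs low on sterol, SCAP escorts the transcription factor SREBP2 to the Golgi for cleavage, and cleaved SREBP2 together with NF-Y switches on the pathway's genes. INSIG proteins hold the complex back when sterol is plentiful. Fat cells store much free cholesterol but make little of it, taking most from lipoproteins. When cells are loaded with sterol, the nuclear receptors LXRα and LXRβ switch on the exporters ABCA1 and ABCG1.

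The identity of the samples and of their cells was checked before the members were read. The Ksr2 probe set read 4.04 to 4.74 in WT and 4.26 to 4.47 in KSR2-/-, a low signal in both, and it may lie outside the disrupted part, so it does not check the labels. Mean levels of 6 adipocyte markers were 11.98 to 12.54 in WT and 11.78 to 12.84 in KSR2-/-, against 5.88 to 6.09 for all genes, so every array carried adipocyte RNA. Macrophage markers (9 measured, 8 of them higher in KSR2-/-) averaged 8.63 to 8.85 in WT and 10.03, 10.05 and 8.84 in KSR2-/- mice 1 to 3. Signal from the 3' end of Gapdh exceeded that from its 5' end by 4.18 in WT 3 and by 0.07 to 1.46 elsewhere. Such an excess can reflect RNA degradation, but its cause was not tested. Muscle markers averaged 7.17 in WT 3 against 4.50 to 5.49 elsewhere. Mesothelial markers averaged 9.13 in KSR2-/- 3 against 6.87 to 7.92 elsewhere, and their part in the results that rest on that array was not tested. By the animal numbers in the labels, WT 3 and KSR2-/- 3 belong to a lower range and the other 4 mice to a higher range, and differences are given within each where they part. The 5 mammary epithelial markers averaged 6.49 in WT 3 and 5.87 in KSR2-/- 3, against 4.51 to 4.94 in the higher range. The ranges thus also differed in these markers, whose part in the other values was not tested.

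The promoters of the synthesis enzymes share a feature that the choice of genes did not use. In windows from 250 bases before to 50 bases after each start site (RefSeq, GRCm38.p6), all 14 synthesis enzymes with a window carried the NF-Y box CCAAT on either strand of at least 1 window, whereas 0 of the 4 uptake and efflux genes with a window did (Lrp1, Abca1, Apoe and Nr1h3). Among 14452 genes on the array with a window, 42.0% carried the box, and among all 32851 windows 37.4%. Of the genes of sterol-sensing control, Srebf2, Insig1 and Insig2 carried it and Scap did not. Fdps, Fdft1, Sqle, Scarb1, Stard4 and Abcg1 had no window and were not searched. The sterol regulatory element TCACNCCAC was found in Hmgcs1 alone of the 22 members with a window, and in 1.24% of all windows. For the LXR element, only exact matches were sought, on both strands, as 2 copies of GGTCA in the same direction with 5 bases between them. None of the 22 had such a match, and 0.0761% of all windows did. Inexact copies were not searched, so these counts do not show that Abca1 or another member lacks an LXR element. Such matches describe letters and do not show binding.

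The 250 bases before the start are printed for genes the results turn on, as far as they had a window, which Fdft1 and Abcg1 did not. The bases run 5' to 3' on the gene's own strand. Matches are in capitals (CCAAT or its reverse ATTGG, and in Hmgcs1 also the sterol regulatory element at -137). Hmgcs1 lies at chr13:119690101-119690350 (plus strand), Mvk at chr5:114444019-114444268 (plus strand), Ebp at chrX:8193513-8193762 (minus strand) and Tm7sf2 at chr19:6067851-6068100 (minus strand). Insig2, which has 3 windows of which this is the only 1 with the box, lies at chr1:121332590-121332839 (minus strand), Lrp1 at chr10:127621149-127621398 (minus strand) and Abca1 at chr4:53159896-53160145 (minus strand). The first 4 are synthesis enzymes, Insig2 is a sterol sensor, and Lrp1 and Abca1 show windows without the box.
Hmgcs1: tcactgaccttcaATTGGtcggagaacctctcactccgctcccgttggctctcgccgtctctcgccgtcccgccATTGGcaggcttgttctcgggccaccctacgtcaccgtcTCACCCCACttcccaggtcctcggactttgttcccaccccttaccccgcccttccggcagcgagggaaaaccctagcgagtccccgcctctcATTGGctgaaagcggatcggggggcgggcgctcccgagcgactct
Mvk: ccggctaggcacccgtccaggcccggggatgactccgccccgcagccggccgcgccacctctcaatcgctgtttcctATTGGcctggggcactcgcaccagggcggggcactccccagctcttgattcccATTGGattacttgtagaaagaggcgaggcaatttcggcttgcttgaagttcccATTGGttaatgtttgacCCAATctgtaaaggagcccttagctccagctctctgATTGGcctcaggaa
Ebp: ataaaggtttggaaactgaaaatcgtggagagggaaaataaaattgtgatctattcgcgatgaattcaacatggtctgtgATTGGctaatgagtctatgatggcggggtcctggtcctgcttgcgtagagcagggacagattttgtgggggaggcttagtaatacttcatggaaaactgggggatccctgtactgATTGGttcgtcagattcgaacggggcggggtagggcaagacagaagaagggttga
Tm7sf2: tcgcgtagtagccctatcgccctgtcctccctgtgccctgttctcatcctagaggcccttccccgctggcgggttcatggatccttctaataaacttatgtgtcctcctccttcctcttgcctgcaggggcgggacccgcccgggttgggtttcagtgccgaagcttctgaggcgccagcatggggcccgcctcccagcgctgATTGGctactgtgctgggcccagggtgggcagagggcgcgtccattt
Insig2: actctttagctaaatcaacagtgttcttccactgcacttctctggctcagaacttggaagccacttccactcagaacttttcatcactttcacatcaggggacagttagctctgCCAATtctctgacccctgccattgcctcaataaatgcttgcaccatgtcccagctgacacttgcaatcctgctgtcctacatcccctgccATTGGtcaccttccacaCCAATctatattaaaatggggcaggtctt
Lrp1: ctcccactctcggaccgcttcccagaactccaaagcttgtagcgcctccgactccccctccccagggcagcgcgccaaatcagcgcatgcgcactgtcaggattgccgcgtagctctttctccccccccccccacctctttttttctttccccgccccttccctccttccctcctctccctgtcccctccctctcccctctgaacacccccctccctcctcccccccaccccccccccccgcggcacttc
Abca1: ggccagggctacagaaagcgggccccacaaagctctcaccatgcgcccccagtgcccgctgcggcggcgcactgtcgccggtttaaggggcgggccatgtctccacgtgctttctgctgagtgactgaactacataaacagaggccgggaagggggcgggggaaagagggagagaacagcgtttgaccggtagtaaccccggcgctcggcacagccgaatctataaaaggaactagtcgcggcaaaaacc
Mvk had the most boxes of these, at -173, -120, -67, -50 and -14 from the start site, and Tm7sf2 a single box at -47. In Ebp the boxes lay at -170 and -55, and in Insig2 at -136, -46 and -29.

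No cholesterol gene passed the test over all genes. By limma with Benjamini-Hochberg adjustment over 18193 genes, 0 of 28 members had an adjusted p under 0.05 (background 0.0055%, 1 gene), with adjusted p from 0.197 for Lrp1 to 0.973 for Apoe. At an unadjusted p under 0.05 there were 4 members, or 14.3%, against 12.1% of all genes. Of these, Lrp1, Abcg1 and Ebp were higher (6.71% of all genes) and Fdft1 was lower (5.38%). The 2 groups did not overlap in 5 members, or 17.9%, against 16.3% of all genes. Hmgcs1, Ebp and Lrp1 were the higher ones (7.72% of all genes) and Tm7sf2 and Insig2 the lower ones (8.56%). All these shares lie near the background. In whole tissue, fewer cells of a type and less RNA per cell cannot be told apart.

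**Figure D1:**
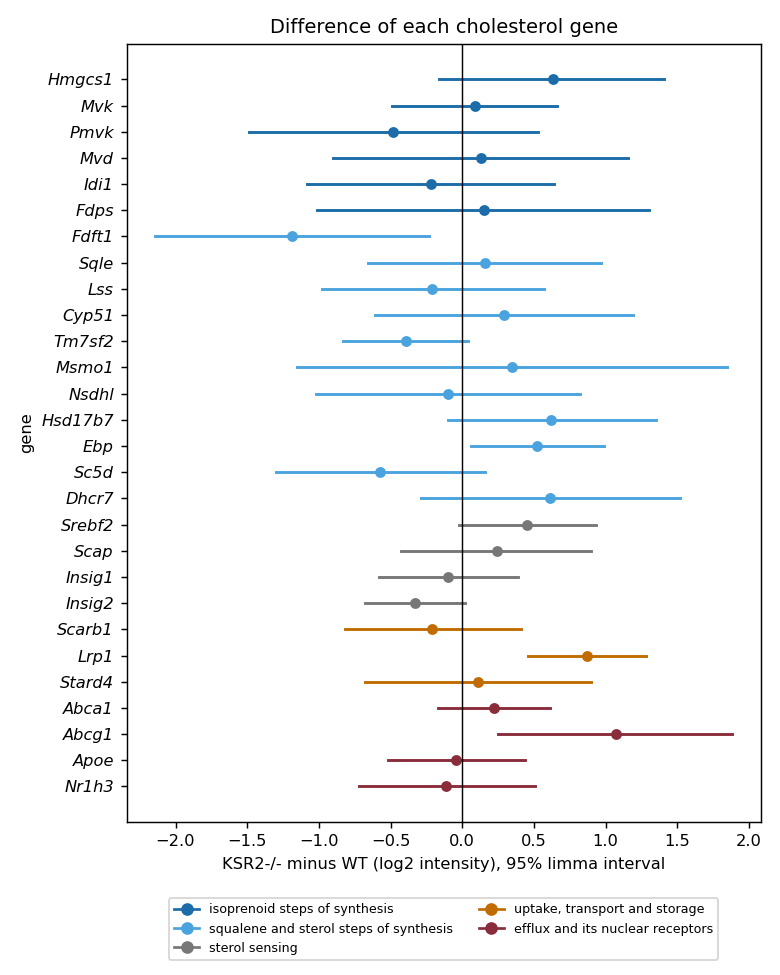
Difference of each of the 28 measured genes between genotypes (horizontal axis, KSR2-/- minus WT in log2 intensity), with points for the limma estimate, bars for its 95% interval (n = 3 mice each) and colours for the gene's role. Bars of Lrp1, Abcg1 and Ebp lie above 0 and that of Fdft1 below 0, before any adjustment, and the other 24 span 0.

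The 17 synthesis enzymes, averaged on each array, differed little between genotypes beside the spread among WT mice. Their mean level was 8.15 ± 0.50 in WT and 8.17 ± 0.26 in KSR2-/- (SD, n = 3), a shift of 0.02, which was −0.02 when arrays were centred on their median or quantile-normalized again. Of the 17, 10 were higher and 7 lower in KSR2-/-, with a median difference of 0.13 against −0.04 over all genes. Array by array the group lay −0.40, 0.56 and −0.17 from the WT mean in WT 1 to 3, and −0.21, −0.03 and 0.31 in KSR2-/- 1 to 3, so every knockout was inside the WT range. The limma intervals were wide, and in 5 of the 17 enzymes the interval excluded a 2-fold difference in either direction. Within the higher-numbered animals the shift was −0.20, and within the lower-numbered pair it was 0.47.

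The isoprenoid steps open the pathway. Hmgcs1, the cytosolic synthase that builds HMG-CoA, measured 9.93, 11.16 and 11.08 in WT 1 to 3 and 11.25, 11.39 and 11.41 in KSR2-/- 1 to 3. All knockouts lay above all WT mice, but the difference from WT 2 and WT 3 was small and WT 1 stood far below. The difference was 0.63 (SE 0.33, limma adjusted p = 0.524), and it was 0.23 without WT 1. Of its 5 probe sets 3 kept the groups apart, with differences of 0.57 to 0.90 over all 5.

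Mevalonate is then phosphorylated by Mvk and Pmvk and decarboxylated by Mvd. Mvk measured 6.65, 6.61 and 5.92 in WT and 6.35, 6.37 and 6.72 in KSR2-/- (difference 0.09, SE 0.24). Pmvk measured 7.97, 9.15 and 8.11 in WT and 7.28, 7.87 and 8.62 in KSR2-/- (difference −0.48, SE 0.43, and −0.11 without WT 2). Mvd ran from 5.00 in WT 1 to 6.67 in WT 2, and its 3 knockout values of 5.62, 6.30 and 6.34 lay between them. In these 3 kinase and decarboxylase genes the groups overlapped.

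Idi1, the isomerase of the isoprenoid unit, measured 8.75, 9.93 and 9.00 in WT and 8.53, 9.02 and 9.46 in KSR2-/- (difference −0.22, SE 0.36). Fdps, which joins the units to farnesyl pyrophosphate, measured 8.70, 8.92 and 7.21 in WT and 8.56, 7.82 and 8.89 in KSR2-/-. WT 3, the array with the Gapdh difference of 4.18, was the lowest for Fdps, as it was for Mvk, Nsdhl and Ebp. The Fdps difference was 0.15 (SE 0.49) over all mice, −0.62 within the higher-numbered animals and 1.69 within the lower-numbered pair, and −0.17 with the Gapdh difference as a covariate.

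Squalene synthase stood out among the enzymes by size. Fdft1, which commits farnesyl pyrophosphate to sterols, measured 9.82, 10.27 and 10.26 in WT and 8.20, 8.74 and 9.84 in KSR2-/-. Knockouts 1 and 2 lay far below every WT mouse, whereas knockout 3 was just above WT 1. The difference was −1.19 (SE 0.40, 2.27-fold lower), with a limma unadjusted p of 0.0215 and an adjusted p of 0.319. It was −1.57 within the higher-numbered animals and −0.42 within the lower-numbered pair. Without KSR2-/- 3 it was −1.64 with a limma adjusted p of 0.0228, in a fit that called 4.49% of all genes.

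The probe set read for Fdft1 has a name ending in _x_at, which marks probes that may match other transcripts. Its next brightest probe set, without that mark, gave −1.21 (limma unadjusted p = 0.114, adjusted p = 0.601), with 7.84, 9.04 and 9.18 in WT and 6.27, 7.28 and 8.87 in KSR2-/-. Knockouts 1 and 2 were the lowest arrays on both probe sets. In knockout 3 the 9 macrophage markers lay 0.13 from the WT mean, but the 6 markers of lipid-associated macrophages lay 1.62 above it, against 4.57 and 4.45 in knockouts 1 and 2. Adipocyte markers lay −0.54, −0.18 and 0.53 from the WT mean in knockouts 1 to 3. The part of these in the Fdft1 values was not tested.

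Squalene is next oxidized by Sqle and closed to lanosterol by Lss. Sqle measured 7.24, 8.52 and 7.39 in WT and 8.03, 7.64 and 7.94 in KSR2-/- (difference 0.16, SE 0.34, limma adjusted p = 0.918). Lss measured 7.18, 7.98 and 7.26 in WT and 6.66, 7.48 and 7.65 in KSR2-/- (difference −0.21, SE 0.33). For both genes the spread among WT mice was larger than the difference between genotypes. Sqle is a second control point of the pathway, and its 3 knockouts lay within the WT range.

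Lanosterol is demethylated and reduced in several steps. Cyp51, the demethylase that acts first, measured 6.81, 8.27 and 7.06 in WT and 7.54, 7.95 and 7.52 in KSR2-/- (difference 0.29, SE 0.38). Tm7sf2, a sterol reductase, measured 7.02, 7.51 and 7.03 in WT and 6.72, 6.82 and 6.86 in KSR2-/-, so all knockouts lay below all WT mice. Its difference was −0.39 (SE 0.18, limma adjusted p = 0.468), −0.50 and −0.18 within the higher- and lower-numbered animals. Without WT 1 the Cyp51 difference was 0.01. For Tm7sf2 the gap between WT 1 and the highest knockout was small, and leaving out WT 2 gave −0.23.

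Msmo1, Nsdhl and Hsd17b7 together strip methyl groups from the ring. Msmo1 measured 6.67, 9.47 and 8.46 in WT and 8.35, 8.77 and 8.53 in KSR2-/-, and WT 1 and WT 2 differed by 2.79. The difference of the means, 0.35 (SE 0.64), was a small part of that gap. Nsdhl measured 9.24, 9.31 and 8.01 in WT and 8.70, 8.36 and 9.20 in KSR2-/- (difference −0.10, SE 0.39). Hsd17b7 measured 6.37, 7.57 and 6.97 in WT and 7.39, 7.79 and 7.59 in KSR2-/- (difference 0.62, SE 0.31, limma adjusted p = 0.487), and its groups overlapped through WT 2 alone. Without WT 1 it differed by 0.32. The Hsd17b7 probe set read here also has a name ending in _x_at, and its dimmer ones gave 0.55, 0.15 and −0.05.

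The last steps shift and reduce double bonds. Ebp, the sterol isomerase, measured 8.31, 8.41 and 8.15 in WT and 8.81, 8.52 and 9.11 in KSR2-/-, with every knockout above every WT mouse. Its difference was 0.52 (SE 0.20, 1.44-fold higher, limma unadjusted p = 0.0316, adjusted p = 0.363), 0.30 within the higher-numbered animals and 0.97 within the lower-numbered pair. Sc5d, a desaturase, measured 10.19, 10.96 and 10.35 in WT and 9.85, 9.49 and 10.45 in KSR2-/- (difference −0.57, SE 0.31). Dhcr7, a reductase that yields cholesterol, measured 6.00, 7.39 and 7.29 in WT and 7.19, 7.71 and 7.62 in KSR2-/- (difference 0.61, SE 0.38), and differed by 0.16 without WT 1. Neighbouring steps thus carried differences of opposite sign, and the intervals of Sc5d and Dhcr7 both spanned 0.

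**Figure D2:**
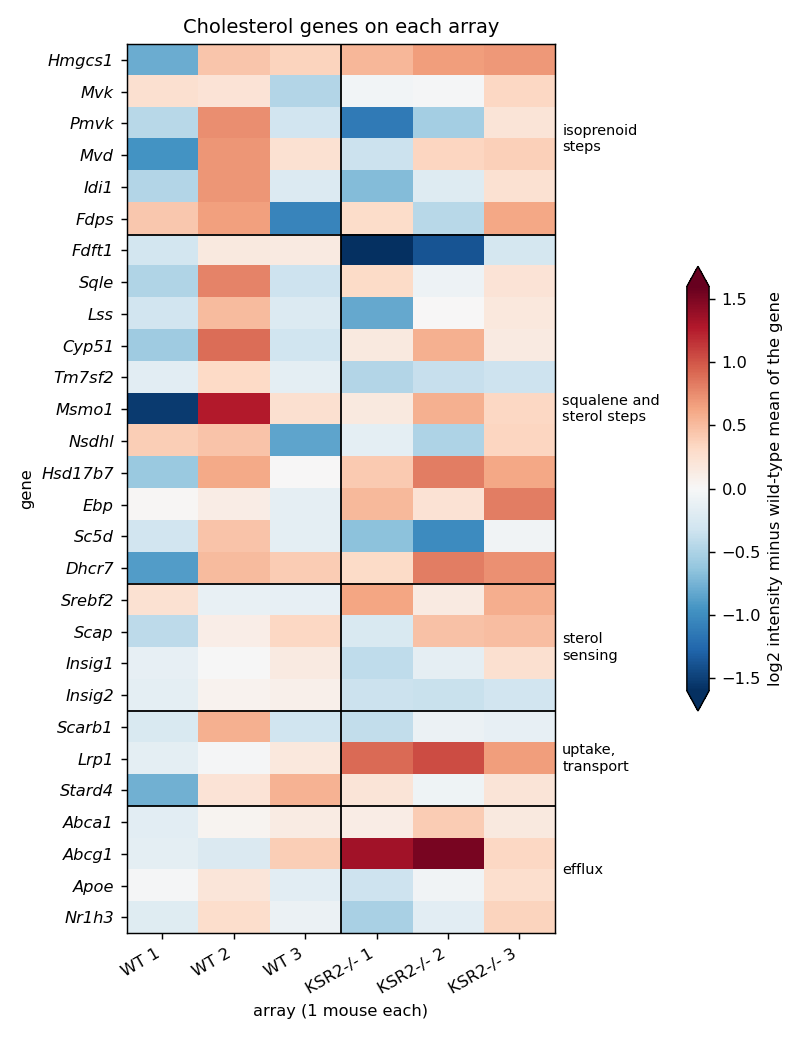
Log2 intensity of each measured gene on each of the 6 arrays, minus the gene's WT mean, with red for higher and blue for lower and genes grouped by role. Values past the ends of the colour bar take its end colour. Many synthesis rows are blue in WT 1 and red in WT 2, Fdft1 is dark blue in KSR2-/- 1 and 2, and Lrp1 is red in all 3 knockouts.

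The larger contrast within the synthesis enzymes was among WT mice. WT 2 exceeded WT 1 in 16 of 17 enzymes (61.5% of all genes), by a median of 1.18 against 0.13 over all genes. It did so by at least 1 log2, or 2-fold, in 9 of 17, against 5.45% of all genes. WT 2 was the highest of all 6 arrays for 12 enzymes (19.5% of all genes). WT 1 was the lowest of all 6 for Hmgcs1, Mvd, Sqle, Cyp51, Msmo1, Hsd17b7 and Dhcr7, or 41.2% of the enzymes against 29.0% of all genes. The dimmer probe sets of Hmgcs1 and Cyp51 also had WT 1 lowest, but those of Mvd, Msmo1 and Hsd17b7 did not. On the second Mvd probe set WT 1 read 5.33 and WT 3 5.19. WT 1 and WT 2 share genotype, sex, age and number range. Adipocyte markers lay −0.34 and 0.12 from the WT mean in WT 1 and WT 2, fibroblast markers −0.50 and 0.10, and lymphocyte markers 0.98 and −0.54, and their part in these values was not tested. The enzymes read on 1 array share that array's RNA, so their counts describe 2 mice and carry no test.

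Knockouts were closer to each other. The median SD of a synthesis enzyme was 0.64 over the 3 WT mice and 0.30 over the 3 knockouts, against 0.25 and 0.24 over all genes. The WT SD was the larger one in 12 of 17 enzymes (53.0% of all genes), reaching 1.41 for Msmo1 against 0.21 in knockouts. Fdft1 ran the other way, with 0.26 in WT and 0.84 in knockouts. For 15 of 17 enzymes the WT range was larger than the difference between genotypes, as it was for 78.9% of all genes. Leaving out WT 1 moved the shift of the synthesis group from 0.02 to −0.18, and leaving out WT 2 moved it to 0.30. It was −0.06 without WT 3 and −0.12 without KSR2-/- 3, so its sign depended on the mice included.

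**Figure D3:**
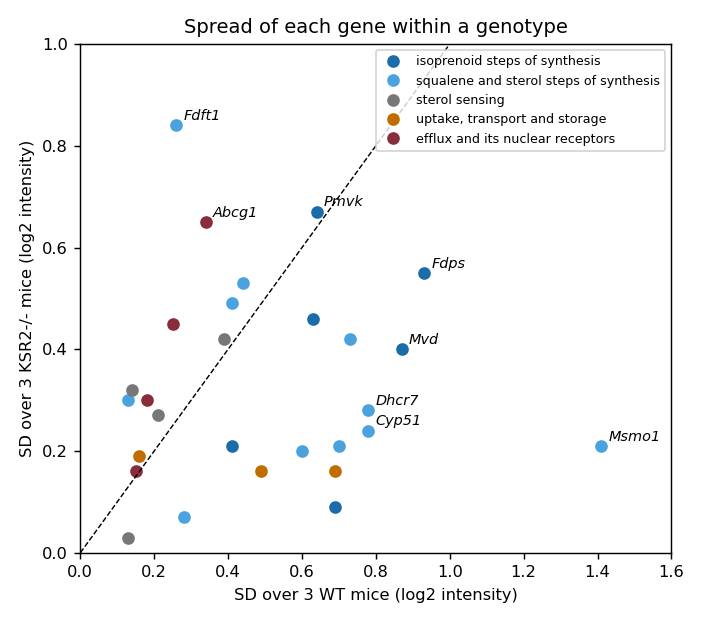
Standard deviation of each gene's log2 intensity over the 3 WT mice (horizontal axis) and the 3 KSR2-/- mice (vertical axis), coloured by role, with the dashed line marking equal spread. Most synthesis enzymes lie below the line, with Msmo1 farthest right (1.41 and 0.21), whereas Fdft1 (0.26 and 0.84) and Abcg1 (0.34 and 0.65) lie above it.

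Among the 4 genes of sterol-sensing control, 2 were higher and 2 lower, and none passed an unadjusted p of 0.05. Srebf2, which encodes SREBP2, measured 6.59, 6.23 and 6.22 in WT and 6.98, 6.49 and 6.93 in KSR2-/-. Its difference was 0.45 (SE 0.20, limma adjusted p = 0.439), and the groups overlapped only through WT 1 and KSR2-/- 2. A second probe set of Srebf2 gave 0.68 with no overlap. Scap, the escort protein, measured 7.39, 7.91 and 8.14 in WT and 7.56, 8.28 and 8.30 in KSR2-/- (difference 0.24, SE 0.28, and 0.02 without WT 1).

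The 2 INSIG genes encode the proteins that retain SCAP, and Insig1 is itself a target of SREBP2. Insig1 measured 8.92, 9.04 and 9.20 in WT and 8.65, 8.91 and 9.30 in KSR2-/- (difference −0.10, SE 0.21, limma adjusted p = 0.911), with overlapping groups. Insig2 measured 9.07, 9.29 and 9.31 in WT and 8.89, 8.87 and 8.93 in KSR2-/-, with every knockout below every WT mouse. The Insig2 difference was −0.33 (SE 0.15, 1.25-fold lower, limma adjusted p = 0.445), −0.30 and −0.38 within the higher- and lower-numbered animals. Its other probe sets gave −0.44 and −0.31, with groups that overlapped.

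Among uptake, storage and efflux genes, Lrp1 and Abcg1 had the largest differences. The 7 measured genes averaged 9.10 ± 0.21 in WT and 9.37 ± 0.09 in KSR2-/- (SD, n = 3), a shift of 0.27, but their median difference was 0.11 and 3 of the 7 were lower. Without WT 1 the shift was 0.15 and the median difference −0.05. On the arrays the group lay −0.25, 0.15 and 0.10 from the WT mean in WT 1 to 3 and 0.19, 0.37 and 0.26 in KSR2-/- 1 to 3. Set against it, the synthesis group minus this group was −0.15, 0.41 and −0.26 in WT and −0.40, −0.40 and 0.04 in KSR2-/-. That contrast differed by −0.25 between genotypes, less than its SD of 0.36 among WT mice, and by −0.05 without WT 2. It was −0.53 within the higher-numbered animals and 0.30 within the lower-numbered pair, of opposite sign.

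Lrp1 had the smallest p of all 28 genes. It encodes a large endocytic receptor that takes up apolipoprotein E-rich remnant particles and many other ligands. It measured 9.27, 9.41 and 9.60 in WT and 10.34, 10.47 and 10.10 in KSR2-/-, so all 3 knockouts were above all 3 WT mice by a clear gap. The difference was 0.87 (SE 0.17, 1.83-fold higher, limma unadjusted p = 0.00149, adjusted p = 0.197). It was 1.06 within the higher-numbered animals and 0.50 within the lower-numbered pair, and 0.79 to 0.98 with any 1 array left out. Without KSR2-/- 3 the limma adjusted p was 0.0431, in a fit that called 4.49% of all genes. Over all leave-one-out fits the adjusted p ran up to 0.716. A dimmer second probe set of Lrp1 gave 1.32, also with no overlap.

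Abcg1 exports cholesterol to HDL and is a classical LXR target in macrophages. It measured 7.90, 7.83 and 8.45 in WT and 9.41, 9.58 and 8.39 in KSR2-/-, with knockouts 1 and 2 high and knockout 3 just below WT 3. The difference was 1.07 (SE 0.35, 2.09-fold higher, limma unadjusted p = 0.0175, adjusted p = 0.308). Within the higher-numbered animals it was 1.63 (limma adjusted p = 0.0287, in a fit that called 2.68% of all genes) and within the lower-numbered pair −0.07. Without KSR2-/- 3 it was 1.44 (limma adjusted p = 0.0309, in a fit that called 4.49% of all genes). The second probe set of Abcg1 gave 1.12, with 5.12, 5.29 and 5.73 in WT and 6.45, 7.21 and 5.82 in KSR2-/-.

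Macrophage markers were high on the arrays where Abcg1 was high. They lay −0.09, 0.13 and −0.05 from the WT mean in WT 1 to 3 and 1.32, 1.33 and 0.13 in KSR2-/- 1 to 3, and 6 of 6 markers of lipid-associated macrophages were higher, by a median of 3.45. Those averaged 6.03 to 6.34 in WT and 10.77, 10.65 and 7.82 in KSR2-/- 1 to 3, so knockout 3 also lay above every WT mouse on that list. Adgre1, a surface marker of mouse macrophages, measured 8.16 to 8.79 in WT and 10.57, 10.71 and 8.75 in KSR2-/-, and Trem2 5.25 to 5.34 against 9.23, 9.02 and 6.43. In knockout 3, where these markers were lowest of the knockouts, Abcg1 was 0.07 below WT 3 and Lrp1 was 0.50 above it. The part of macrophage RNA in the Abcg1 and Lrp1 values was not tested.

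**Figure D4:**
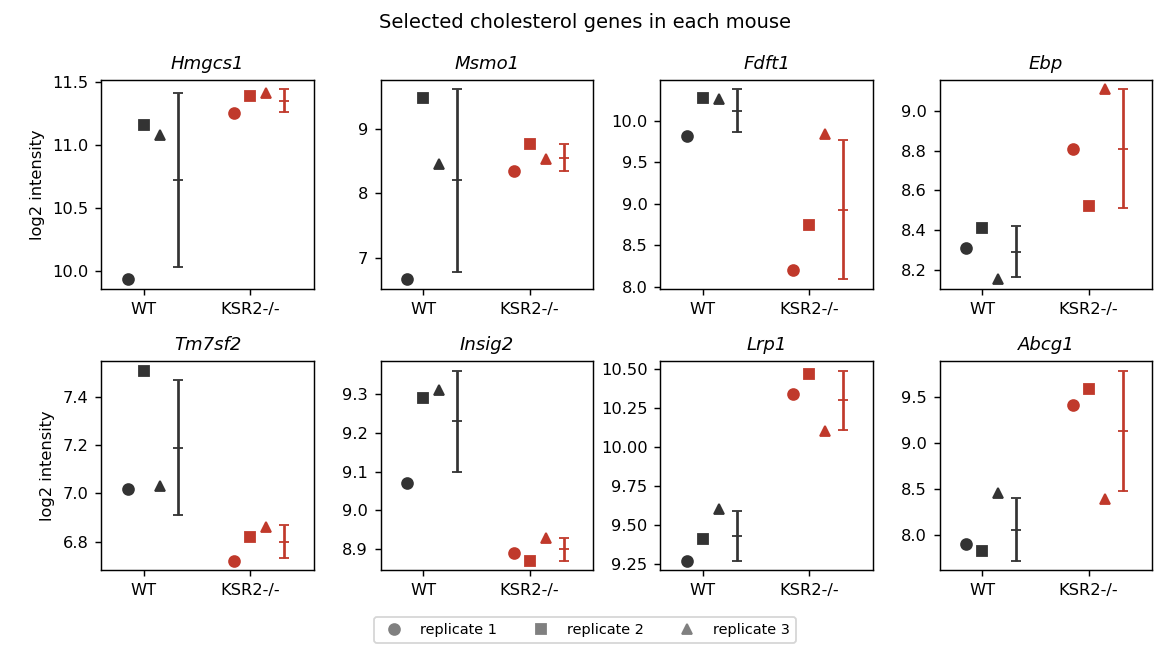
Log2 intensity of 8 genes in each mouse (vertical axes, a separate scale per gene and not starting at 0), with symbols for the replicate and bars for the mean ± SD of 3 mice. Knockouts lie apart from WT for Hmgcs1, Ebp, Tm7sf2, Insig2 and Lrp1, and KSR2-/- 3 lies at the WT values for Fdft1 and Abcg1.

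The other uptake and efflux genes showed overlapping groups. Abca1, which loads cholesterol onto lipid-poor apolipoprotein A-I, measured 10.91, 11.12 and 11.21 in WT and 11.20, 11.49 and 11.23 in KSR2-/- (difference 0.22, SE 0.17, limma adjusted p = 0.680). Its interval of −0.17 to 0.61 excluded a 2-fold difference. Its 2 dimmer probe sets of Abca1 gave 0.01 and −0.28, with WT 3 and KSR2-/- 3 the lowest on both. Apoe, the apolipoprotein secreted by fat cells and macrophages, measured 12.33, 12.54 and 12.18 in WT and 12.02, 12.29 and 12.62 in KSR2-/- (difference −0.04, SE 0.20, limma adjusted p = 0.973).

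Scarb1, the HDL receptor that exchanges cholesteryl ester, measured 8.20, 9.01 and 8.12 in WT and 8.05, 8.35 and 8.31 in KSR2-/- (difference −0.21, SE 0.26). Stard4, a soluble sterol carrier that SREBP2 controls, measured 5.98, 6.97 and 7.31 in WT and 6.96, 6.68 and 6.96 in KSR2-/- (difference 0.11, SE 0.34). Nr1h3, the LXRα receptor, measured 7.36, 7.84 and 7.47 in WT and 7.04, 7.39 and 7.92 in KSR2-/- (difference −0.11, SE 0.26). Stard4 was lowest in WT 1, as were 7 of the synthesis enzymes.

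Further genes of the pathway were counted from lists that do not overlap the members. Of 13 other genes of lipoprotein uptake and lysosomal cholesterol release, 0 passed limma over all genes, while 6 were higher and 1 lower at an unadjusted p under 0.05 (53.8% against 12.1% of all genes). Npc1, which moves cholesterol out of lysosomes, measured 5.04, 5.75 and 5.31 in WT and 6.86, 6.79 and 6.08 in KSR2-/- (difference 1.21, SE 0.28, limma adjusted p = 0.230). The scavenger receptor Msr1 differed by 2.11 (SE 0.58), Stab1 by 1.36 (SE 0.41) and Olr1, whose WT signal was very low, by 1.28 (SE 0.39). Lipa, the lysosomal acid lipase, picked after its values were seen, measured 8.61, 8.67 and 9.02 in WT and 11.46, 11.43 and 9.13 in KSR2-/-. The list lay 0.85, 0.89 and 0.19 above its WT mean in KSR2-/- 1 to 3, the same order as the macrophage markers, whose part in it was not tested.

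Of 19 genes of cholesterol transport, ester turnover and oxysterols, 3 were higher and 2 lower at an unadjusted limma p under 0.05 (26.3% against 12.1% of all genes), and 0 passed over all genes. Nceh1, a cholesteryl ester hydrolase of macrophages, measured 5.76, 5.37 and 5.99 in WT and 8.67, 9.29 and 6.35 in KSR2-/- (difference 2.40, SE 0.70). Gramd1a, which carries sterol from the plasma membrane to the endoplasmic reticulum, differed by 0.62 (SE 0.18) and was higher in all 3 knockouts, with 0.77 within the lower-numbered pair. Stard3, a tether of late endosomes, differed by 0.59 (SE 0.19), and Scp2, a peroxisomal sterol carrier, by −0.56 (SE 0.16). Limma adjusted p for these 4 ran from 0.277 to 0.313.

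Of 14 other efflux and LXR-response genes, 2 were higher and 1 lower at that p (21.4% against 12.1% of all genes), with 0 past limma over all genes. Abca7 differed by 0.89 (SE 0.25), and Pltp, the phospholipid transfer protein of plasma, by 1.15 (SE 0.40). Apoc2 differed by 0.69 (SE 0.32). Srebf1, the fatty acid counterpart of Srebf2, measured 10.28, 11.25 and 10.53 in WT and 9.30, 9.99 and 10.19 in KSR2-/-, below every WT mouse (difference −0.86, SE 0.33, limma adjusted p = 0.371). Srebf1 and Srebf2 thus had differences of opposite sign.

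Of 12 other genes of sterol synthesis and its control, 2 were lower and 0 higher at an unadjusted limma p under 0.05 (16.7% against 12.1% of all genes), and 0 passed over all genes. Aacs, which makes acetoacetyl-CoA from ketone bodies for lipid synthesis in the cytosol, measured 8.84, 10.09 and 9.07 in WT and 6.92, 7.39 and 8.44 in KSR2-/- (difference −1.75, SE 0.47, limma adjusted p = 0.252). Pgrmc1, a membrane protein that binds CYP51 among other P450 enzymes, differed by −0.51 (SE 0.20). Faf2 and Fntb, named for their small p, differed by 0.45 (SE 0.21) and 0.46 (SE 0.23).

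Fatty acid synthesis, the neighbouring lipid pathway under SREBP1, gave larger differences on these arrays. The 8 fatty acid synthesis genes had a median difference of −1.38, with 7 lower, and 5 of them (Acacb, Acaca, Elovl6, Acly and, named after its value was seen, Scd1) at an unadjusted limma p under 0.05 (62.5% against 5.38% of all genes lower at that p), though 0 passed over all genes. Their mean lay 0.34, 0.59 and −0.93 from the WT mean in WT 1 to 3. In KSR2-/- 1 to 3 it lay at −1.94, −1.61 and −0.50, so knockout 3 was inside the WT range. The groups did not overlap in 2 of these 8 genes, both lower (25.0% against 8.56% of all genes lower, and 16.3% in either direction). The cholesterol synthesis group lay at −0.21, −0.03 and 0.31 in the knockouts. Within the higher-numbered animals the shifts were −2.24 for fatty acid and −0.20 for cholesterol synthesis, and within the lower-numbered pair 0.43 and 0.47. Elovl6 differed by −2.89 (SE 0.96) and Acacb by −2.03 (SE 0.48), beside −1.19 for Fdft1. The difference between the 2 lists was not tested.

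**Figure D5:**
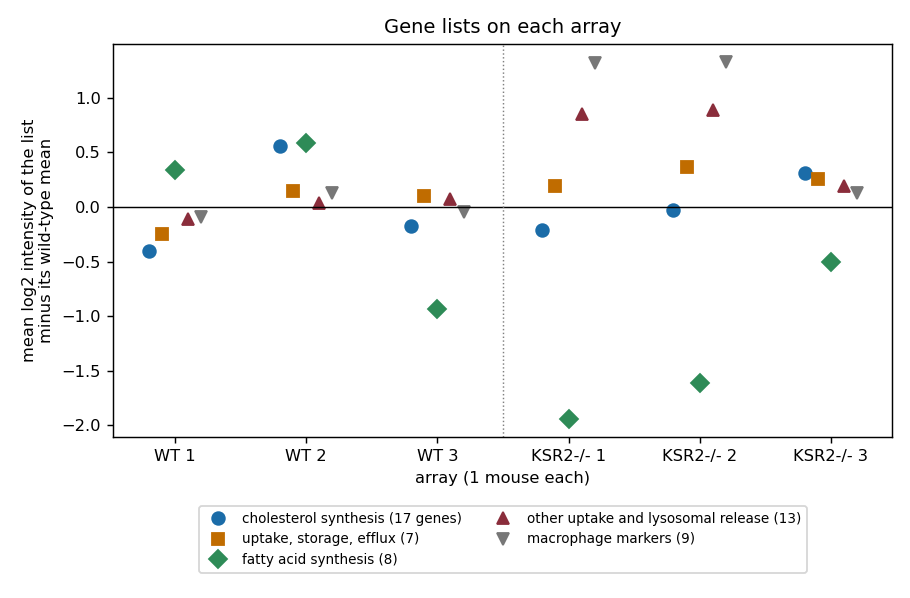
Mean log2 intensity of 5 gene lists on each array, minus the list's WT mean (vertical axis), for 3 WT and 3 KSR2-/- mice. Cholesterol synthesis (circles) stays between −0.40 and 0.56 with knockouts inside the WT range, fatty acid synthesis (diamonds) is at −1.94 and −1.61 in KSR2-/- 1 and 2, and macrophage markers (lower triangles) are at 1.32 and 1.33 there.

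Some genes differed one way in the higher-numbered animals and the other way in the lower-numbered pair. A genotype-by-range interaction in limma passed for 0 of 28 members and 0 of all genes after adjustment. At an unadjusted p under 0.05 it held 4 members, Mvk, Fdps, Nsdhl and Abcg1 (5.97% of all genes). In the lower-numbered pair 15 of 17 synthesis enzymes were higher in KSR2-/- 3 than in WT 3 (40.4% of all genes), and in the higher-numbered animals 7 of 17 (46.5%). That pair is 1 mouse against 1, and WT 3 is also the array with the Gapdh difference of 4.18. Genotype and whatever that Gapdh difference reflects therefore cannot be told apart within the pair.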

How the data were processed

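The deposited values are linear intensity from RMA, the method per the submitters' processing notes and the scale from the values themselves (lowest 2.96, array medians 22.4 to 24.2). RMA normalizes and summarizes all arrays together, and no source used here gives its version or settings. log2 was taken with no pseudocount. Of 45101 probe sets, 34945 carried a single gene in the platform annotation, and 34741 of these were renamed through gene identifiers in RefSeq (GRCm38.p6). Each of 18193 genes was read from its brightest such probe set.

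The test of genotype was limma's (3.58.1, under R 4.3.3; lmFit and eBayes without trend, two-sided, 3.06 prior degrees of freedom), adjusted by Benjamini-Hochberg over all genes at a threshold of 0.05. The same fit was also run on simulated data, with independent normal noise around each gene's mean at its own spread. At a limma adjusted p under 0.05 this fit recovered 23% of 100 genes changed 2-fold and 67% of 100 changed 4-fold. The changed genes were drawn at random from all genes, so these shares are not those of the members. A gene that does not pass may therefore still differ. Precision is limited by the number of arrays (median standard error 0.22 log2). Replicates were numbered in accession order. Values are named for members whose groups did not overlap or whose unadjusted p was under 0.05, for 6 genes set by name, and for the 4 smallest p of each further list, and the other members are given so that all are accounted for. Members, lists and tests were chosen with earlier results of these data known. Alternatives covered the filter, probe sets, normalization, eBayes trend, animal number series, Gapdh covariate, pseudocount of 16 and each array left out.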

Additional observations from a re-analysis of the deposited data

How the results depend on the processing

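With 3 mice a group, the median half-width of a member's unadjusted 95% interval was 0.75 log2. At the adjusted threshold differences above 2-fold did not pass either, as for Fdft1 (2.27-fold) and Abcg1 (2.09-fold). The count of members past limma was 0 in every fit of all 6 arrays, 1 within the higher-numbered animals, and 0 to 3 with 1 array left out. The fit within the higher-numbered animals called 2.68% of all genes. The fit without KSR2-/- 3, which gave the count of 3, called 4.49% of all genes. The count at an unadjusted p under 0.05 was 4, against 7 with quantile normalization repeated and 1 to 5 with 1 array left out. It was 1 without KSR2-/- 1 and 2 without WT 3. At that p the share of all genes was taken in the main fit alone (12.1%). These changes in the count therefore cannot be told from changes over all genes. The 3 group shifts moved by less than their SD between replicates (0.40, 0.16 and 0.31) under every setting run. The lower-numbered pair alone was not among these settings. There the synthesis shift was 0.47 beside 0.02 over all mice, and synthesis minus uptake, storage and efflux was 0.30 beside −0.25. The shifts are therefore not shown to hold in that pair. Of 476 single-gene values under the alternatives, 443 kept the main direction and side of the threshold, 4 newly passed and 29 changed sign, over 14 genes, none of them called. No member passed in the main fit, so no call could be lost. Values that kept their direction could still change much in size, as Hmgcs1 did from 0.63 to 0.23 without WT 1. The count of 443 therefore does not measure how stable the sizes were.

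Signs changed with the Gapdh covariate for Mvk (−0.05) and Fdps (−0.17), within the higher-numbered animals for Mvk (−0.27), Fdps (−0.62) and Sqle (−0.04), and with the mean of all probe sets for Fdps (−0.03) and Abca1 (−0.02). With 1 array left out the differences ran from −0.15 to 0.22 for Mvk, −0.35 to 0.48 for Mvd, −0.46 to 0.13 for Idi1, −0.39 to 0.47 for Fdps, −0.08 to 0.56 for Sqle, −0.40 to 0.09 for Lss, −0.42 to 0.98 for Msmo1, −0.52 to 0.13 for Nsdhl, −0.27 to 0.05 for Insig1, −0.36 to 0.08 for Scarb1, −0.27 to 0.39 for Stard4, −0.19 to 0.11 for Apoe and −0.35 to 0.10 for Nr1h3. The cause was not tested. Probe sets not ending in _x_at, chosen after seeing the data, left 3 members at an unadjusted p under 0.05. No paired analysis was possible because the labels give the groups no shared replicate numbers.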
